A study of Mus musculus with 37 samples.

Results

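The genes followed here were 10 interferon-gamma-inducible GTPases, chosen by name: the immunity-related GTPases Iigp1, Irgm1, Irgm2 and Igtp, and the guanylate-binding proteins Gbp2, Gbp3, Gbp4, Gbp6, Gbp7 and Gbp9. Each was read from a transcript cluster, the array's set of probes for one gene, that carried its symbol and no other. Such a cluster existed for 6 of the 10 genes (Iigp1, Irgm1, Gbp3, Gbp4, Gbp7 and Gbp9), out of 19938 genes measured in this way. Irgm2 and Igtp were annotated to a shared cluster, the cluster of Gbp2 also listed Gbp2b, and Gbp6 was listed only together with other Gbp genes, so no value is given for these 4. Besides their own cluster, Gbp4 and Gbp9 were each also listed in 1 shared cluster, which was not used.

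RNA from snap frozen mouse colon was measured on 37 Affymetrix arrays of the type Mouse Gene 1.0 ST, and each title carried its own animal number. Knockout (KO) mice were of the strain B6.129S4-Timp1tm1Pds/J, which carries a targeted allele of Timp1, an inhibitor of matrix metalloproteinases, and wild types (WT) were C57BL/6J. The mice on treatment received dextran sodium sulphate (DSS) by mouth, a polysaccharide that injures the colonic epithelium and sets off colitis. The groups were KO acute DSS (n = 6), KO acute control (n = 3), WT acute DSS (n = 5) and WT acute control (n = 3), and KO chronic DSS, KO chronic control, WT chronic DSS and WT chronic control (n = 5 each). Age, sex, DSS dose and duration, and whether the wild types were littermates, were not given in the sources used here. Values are log2 signals after the robust multi-array average (RMA), so 1 unit is a change of 2-fold, and levels of different genes are not compared because probes differ in brightness.

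Interferon-gamma, released mainly by T cells and natural killer cells, acts through its receptor and the kinases JAK1 and JAK2 on genes with GAS elements in their promoters. It also raises IRF1, a transcription factor that binds ISRE elements in many of the same genes. The immunity-related GTPases (IRGs) and guanylate-binding proteins (GBPs) are among the most strongly induced targets: they coat vacuoles that hold parasites or bacteria, break them open, and in the case of several GBPs help expose bacterial lipopolysaccharide to caspase-11 (Casp4 in the mouse). Irgm1, Irgm2 and Igtp are regulatory IRGs that hold effector IRGs such as Iigp1 inactive on the cell's own membranes.

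The promoters of 6 of the 10 genes were matched by symbol in RefSeq sequence (GRCm38.p6), in 7 windows of 250 bases before and 50 after a start site. Windows on the chromosome of Iigp1 were left out of this match, so no promoter of Iigp1 was searched. Both elements were searched on both strands: GAS as TTCNNNGAA and the core of ISRE as GAAANNGAAA. The ISRE core was found in all 6 genes, against 3.44% of 32851 promoter windows in the table, and GAS in 3 (Gbp7, Igtp and Irgm2), against 8.3%. Those 3 genes held both elements, as did 0.454% of all windows. The 150 bases before the start site are shown for the 3 matched genes that also have array values, because these are the genes whose levels follow, with GAS and ISRE core matches in capitals:
Irgm1, chr11:48871421-48871570, minus strand: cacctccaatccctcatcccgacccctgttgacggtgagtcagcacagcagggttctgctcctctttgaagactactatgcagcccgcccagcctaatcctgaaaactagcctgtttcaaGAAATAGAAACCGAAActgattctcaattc
Gbp3, chr3:142559894-142560043, plus strand: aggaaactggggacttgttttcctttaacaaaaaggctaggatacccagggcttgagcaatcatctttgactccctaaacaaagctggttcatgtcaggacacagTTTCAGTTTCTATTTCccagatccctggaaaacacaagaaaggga
Gbp7, chr3:142530186-142530335, plus strand: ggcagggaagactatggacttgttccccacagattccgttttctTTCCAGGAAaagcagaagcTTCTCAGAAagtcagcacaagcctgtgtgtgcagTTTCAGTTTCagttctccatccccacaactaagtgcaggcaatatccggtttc

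Irgm1 and Gbp3 each held 2 overlapping ISRE cores and no GAS match, and a second annotated window of Gbp3 held neither. Gbp7 held 2 GAS matches and 1 ISRE core. In the 3 matched genes without array values the stretch from the first to the last matched base is shown, since it shows the spacing of the elements:
Irgm2, chr11:58214902-58214922, plus strand: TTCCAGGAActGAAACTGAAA
Igtp, chr11:58199511-58199531, plus strand: TTCTAGGAActGAAACTGAAA
Gbp2, chr3:142620604-142620613, plus strand: TTTCACTTTC
Irgm2 and Igtp carried the GAS match and the ISRE core 2 bases apart. A match describes letters in a window and was not tested for binding.

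The arrays had medians between 7.67 and 7.76, and each array correlated with the rest of its group at 0.967 or more on average over all clusters. The 12 measured epithelial markers, which check the labelled tissue, had a mean log2 level of 12.35 to 12.86 in 35 of the arrays and lower values in WT acute DSS replicates 1 (11.82) and 3 (10.79). Timp1 fell by 3.14 ± 0.33 (SE) in KO acute DSS relative to WT acute DSS (limma, adjusted p = 1.34e-07) and by 1.38 ± 0.34 in KO chronic DSS relative to WT chronic DSS (limma, adjusted p = 0.0255), where WT chronic DSS replicate 5 (7.20) lay within the KO range. Its mean was 7.01 in KO and 7.63 in WT acute controls and 7.14 in KO and 7.13 in WT chronic controls. Neither difference passed (limma, adjusted p = 0.608 and 0.996). The acute controls lay apart, at 6.94 to 7.12 in KO and 7.56 to 7.76 in WT, and the chronic controls overlapped. Timp1 therefore does not check the genotype labels of the chronic controls, and in the acute controls it shows a gap in ranges without a passed test. Animal numbers fell into 4 series, treated here as possible batches because no batch is given: plain numbers held all WT acute arrays and KO acute DSS replicates 1 to 3. A second series held the KO acute controls and KO acute DSS replicates 4 to 6, the third the WT chronic DSS arrays and WT chronic controls 1 to 3, and the fourth the KO chronic arrays and WT chronic controls 4 and 5. KO acute DSS replicate 4 and KO acute control replicate 2 had Y-linked signal and the other 35 arrays did not.

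Under acute DSS, 5 of the 6 measured GTPases were higher in KO than in WT colon, by 2.21-fold for Gbp3 to 4.23-fold for Iigp1, and Gbp9 did not pass the test. A gene passed at an adjusted p under 0.05 (limma, Benjamini-Hochberg over 19938 genes). In this comparison 15.8% of all genes passed as higher and 15.2% as lower. With only the arrays of these groups fitted, Iigp1 and Irgm1 passed and Gbp3, Gbp4 and Gbp7 did not (limma adjusted p = 0.0835, 0.101 and 0.0588). In that fit 2239 of all genes passed. The median log2 difference of the 6 genes was 1.23, against 0.02 over all genes. The p-values set each difference against 1 spread between arrays per gene, shared by all 8 groups. The groups differed in spread: the standard deviation (SD) of Iigp1 was 1.00 in KO acute DSS, 1.21 in WT acute DSS and 0.35 in KO chronic controls. An SE from the shared spread can therefore be too small for widely spread groups and too large for narrow ones. A difference in bulk colon RNA cannot tell a change in the number of cells of a type from a change in RNA per cell.

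Irgm1, a regulatory IRG, had log2 signals of 10.55 (lowest), 10.96 (median) and 11.76 (highest) in KO acute DSS, against 9.44, 8.82, 10.31, 9.10 and 8.83 in WT acute DSS. It was the only one of the 6 genes in which every KO array lay above every WT array, an arrangement found for 2.96% of all genes. The difference was 1.72 ± 0.23 (SE, 95% interval 1.25 to 2.19, adjusted p = 3.12e-06 in limma). Iigp1, an effector IRG that loads onto parasite vacuoles, had 9.10 (lowest), 10.50 (median) and 11.77 (highest) in KO acute DSS. In WT acute DSS it had 8.80, 7.86, 10.37, 7.57 and 7.46. WT replicate 3 lay inside the KO range and the other WT arrays below it, and the difference was 2.08 ± 0.43 (interval 1.20 to 2.97, adjusted p = 0.000496 in limma).

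Among the guanylate-binding proteins, Gbp7, which with Gbp3 lies in the gene cluster on chromosome 3, had 9.28 (lowest), 10.15 (median) and 11.11 (highest) in KO acute DSS and 9.31, 8.52, 9.97, 8.52 and 8.68 in WT acute DSS. Gbp3 had 8.88, 9.73 and 10.46 (lowest, median and highest) in KO acute DSS, against 8.69, 7.71, 10.03, 8.18 and 8.03 in WT acute DSS. WT replicate 3 reached into the KO range for both genes, and WT replicate 1 did so for Gbp7. The differences were 1.17 ± 0.27 for Gbp7 and 1.14 ± 0.27 for Gbp3 (SE, limma adjusted p = 0.00114 and 0.00182).

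Gbp4 had 8.77 (lowest), 10.00 (median) and 11.05 (highest) in KO acute DSS. In WT acute DSS it had 9.16, 7.82, 10.05, 8.06 and 8.31, and the difference was 1.30 ± 0.33 (limma adjusted p = 0.00332). WT replicates 1 and 3 overlapped the KO range. Gbp9 had 8.28 (lowest), 9.01 (median) and 9.43 (highest) in KO acute DSS, against 9.10, 8.09, 9.92, 8.21 and 8.46 in WT acute DSS. Its highest array was a WT one, and its difference was 0.16 ± 0.23 (interval -0.32 to 0.63, limma adjusted p = 0.651). With array weights it stood at 0.55 and passed (limma adjusted p = 0.0333), as did 5076 of all genes.

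**Figure D1:**
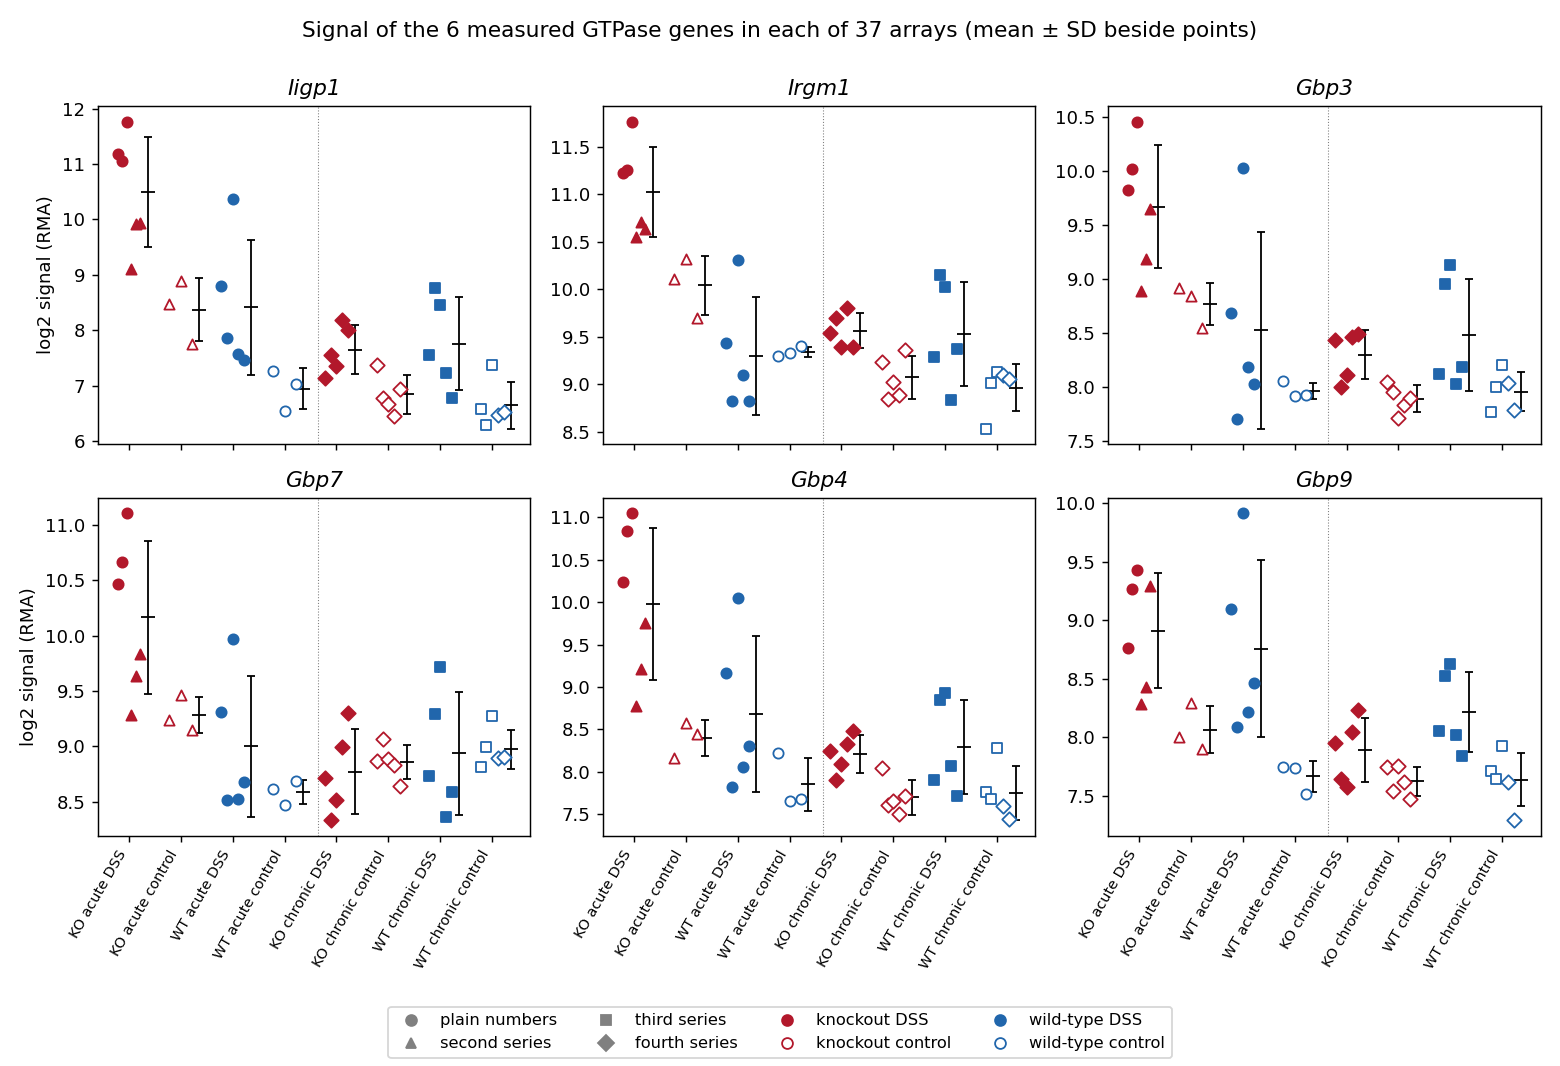
Log2 RMA signal (y axis) of the 6 measured GTPases in each of 37 arrays by group (x axis), with DSS arrays filled, control arrays open, the marker shape giving the series of the animal number, and bars showing mean ± SD. KO acute DSS arrays sit highest in Irgm1, between 10.55 and 11.76, and WT acute DSS replicate 3 stands above the other WT acute DSS arrays in all 6 panels.

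The 6 KO acute DSS arrays fell apart by series of animal number. Iigp1 had 11.18, 11.05 and 11.77 in KO acute DSS replicates 1 to 3 (plain numbers) and 9.10, 9.92 and 9.94 in replicates 4 to 6 (second series). Irgm1, Gbp3, Gbp4 and Gbp7 were likewise higher in each of the first 3 than in each of the last 3, and Gbp9 overlapped. Within the plain numbers alone, KO (n = 3) exceeded WT (n = 5) by 2.92 for Iigp1, 2.11 for Irgm1, 2.03 for Gbp4, 1.75 for Gbp7 and 1.57 for Gbp3. These 5 passed there too (limma adjusted p = 0.00151 to 0.0251), and Gbp9 stood at 0.40 (limma adjusted p = 0.479). In that fit 4595 of all genes passed.

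The cell type markers also differed between these groups. T and natural killer cell markers were higher in KO acute DSS for 6 of 13 genes and lower for 0, led by Gzma (1.49 ± 0.23), a granzyme, and Nkg7 (1.37 ± 0.25), a granule protein. Their mean log2 level ranged over 7.31 to 8.42 in KO acute DSS and 7.00 to 7.89 in WT acute DSS. Macrophage markers were lower for 8 of 11 genes (range 8.29 to 9.67 in KO, 9.40 to 10.88 in WT) and neutrophil markers for 7 of 10 (6.40 to 8.59 in KO, 8.03 to 10.14 in WT). Endothelial markers were lower for 7 of 7, fibroblast markers for 6 of 6 and smooth muscle markers for 3 of 6, while epithelial markers were higher for 5 of 12 and B cell markers passed for 0 of 5. The part of these shifts in the GTPase differences was not tested.

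The same comparison was made for the pathway around the GTPases. Ifng, the ligand, had 6.57 (lowest), 7.08 (median) and 8.24 (highest) in KO acute DSS, against 6.49, 6.57, 7.13, 6.54 and 6.45 in WT acute DSS. The difference was 0.64 ± 0.19 (limma adjusted p = 0.0102), and KO replicates 1 to 3 held its 3 highest values. The receptor chain Ifngr1 stood at 0.07 ± 0.07 (limma adjusted p = 0.541), and Ifngr2 was higher by 0.19 ± 0.07 (limma adjusted p = 0.045). Irf1, the transcription factor that binds ISRE elements, had 10.73 (lowest), 11.13 (median) and 11.64 (highest) in KO acute DSS and 9.75, 9.76, 10.41, 9.97 and 9.95 in WT acute DSS. Its groups did not overlap, and it was higher by 1.16 ± 0.13 (limma adjusted p = 2.25e-07). Of 13 measured genes of interferon-gamma signalling 6 were higher and 1 lower (Jak1, -0.31 ± 0.10), with a median of 0.19. Among them Batf2, a transcription factor of activated macrophages, was higher by 1.10 ± 0.16 and Irf8, a myeloid transcription factor, by 0.75 ± 0.11.

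Of 10 further measured genes of the GTPase families and their relatives, 5 were higher and 1 lower. Gm12250, listed in RefSeq under the synonym Irgb10 and known to act on bacterial membranes, was higher by 2.33 ± 0.33 (limma adjusted p = 6.02e-06) with no overlap between groups. Gm4841 (synonym Ifgga3) was higher by 1.50 ± 0.23 and Gbp8 by 1.48 ± 0.19, and Atl3, an atlastin GTPase of the endoplasmic reticulum, was lower (-0.41 ± 0.08). Gbp5 stood at 0.45 ± 0.38 (limma adjusted p = 0.396). Probes of Gbp genes can share sequence, so values of single Gbp genes may hold signal of close relatives.

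Other targets and partners were counted in the same way. Of 24 further interferon-gamma targets 15 were higher and 1 lower, with Ido1, a tryptophan-degrading enzyme, at 3.91 ± 0.47, the chemokine Cxcl9 at 2.52 ± 0.55 and the nucleic acid sensor Zbp1 at 1.70 ± 0.25. Of 23 genes known mainly as type I interferon targets 18 were higher and 0 lower, with Ifit2 at 1.85 ± 0.25, Usp18 at 1.65 ± 0.30 and Oasl2 at 1.64 ± 0.29. Of 9 inflammasome genes 6 were higher: Nlrp1b, a sensor, by 1.24 ± 0.14, the adaptor Pycard by 0.95 ± 0.20 and Casp1 by 0.93 ± 0.19. Casp4, the lipopolysaccharide-sensing caspase, stood at 0.27 ± 0.18 (limma adjusted p = 0.276). Of 13 genes of autophagy and ubiquitin handling, several of which are needed to place IRGs and GBPs on vacuoles, 3 were higher and 2 lower, the largest being Gabarapl1 (-0.74 ± 0.15), Sqstm1 (-0.37 ± 0.08) and Atg12 (0.24 ± 0.08), with a median of 0.01. Of 12 inducers of interferon-gamma 2 were higher, Tbx21 (0.40 ± 0.09) and Il12rb2 (0.39 ± 0.15). Among all genes 15.8% passed as higher and 15.2% as lower, and the counts of the autophagy genes and the inducers lie near these shares.

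**Figure D2:**
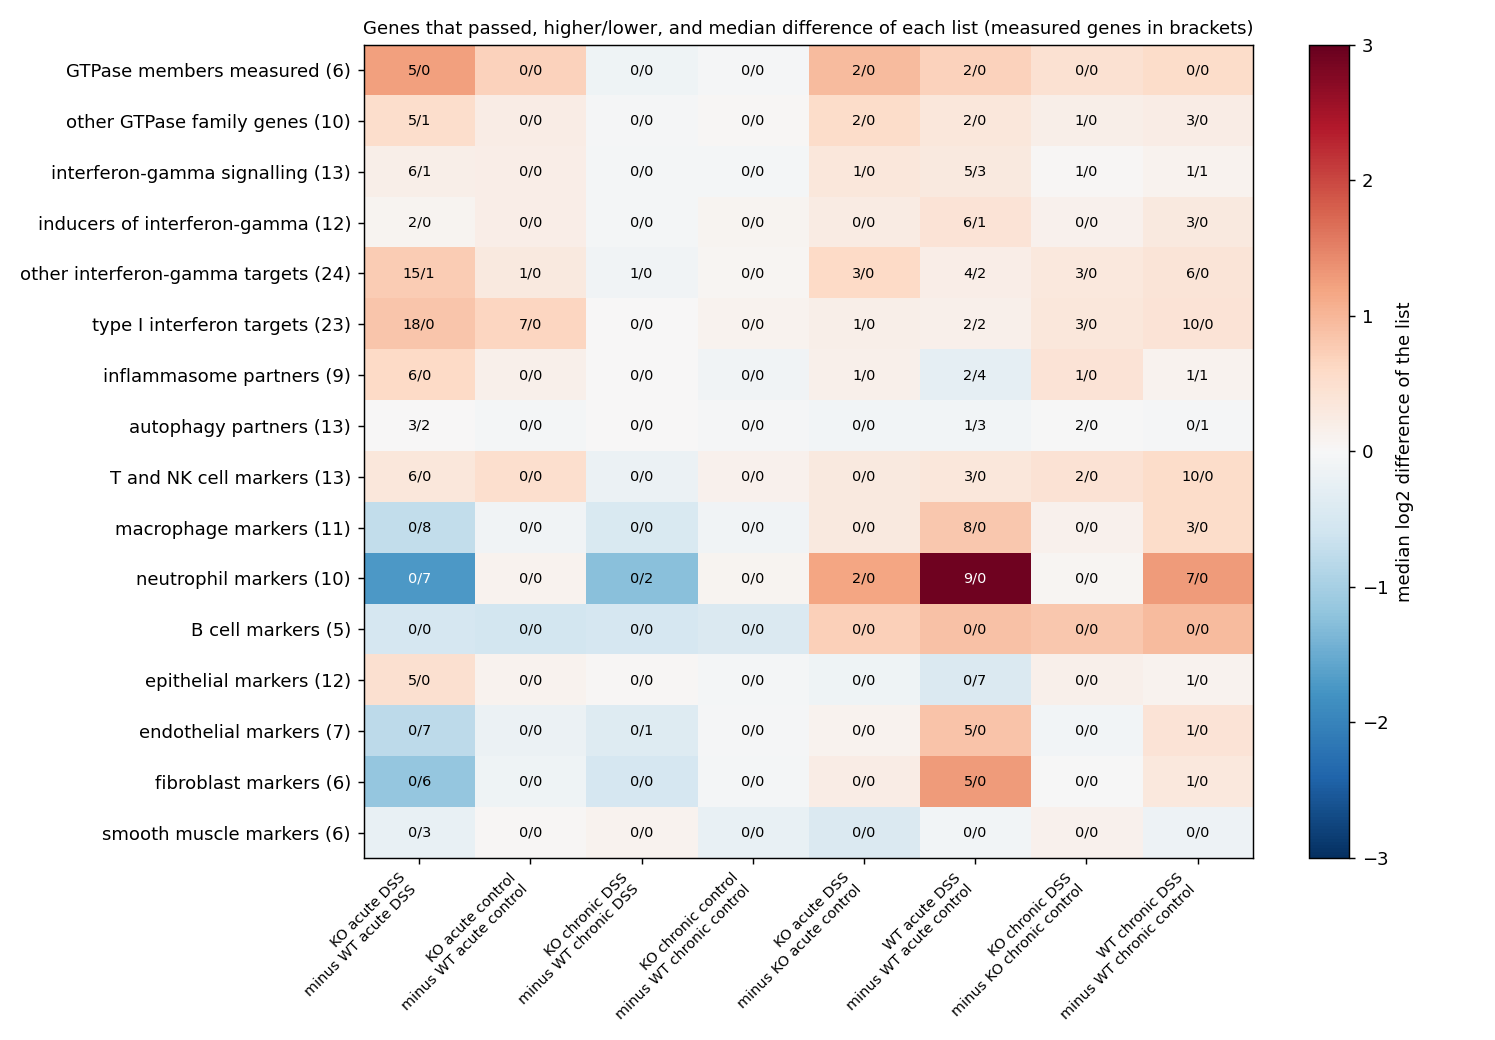
Median log2 difference (colour) of each gene list (rows, measured genes in brackets) in the 8 pairwise comparisons (columns), with the number of genes that passed as higher and lower printed in each cell. In KO acute DSS minus WT acute DSS, 5 of 6 GTPases and 18 of 23 type I interferon targets were higher, while 7 of 10 neutrophil markers were lower.

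Without DSS, KO and WT acute controls were compared next. None of the 6 GTPases passed in limma (1.12% of all genes did), and 3 had an unadjusted p under 0.05 (Iigp1, Irgm1 and Gbp3), as did 13.1% of all genes. All KO arrays lay above all WT arrays for 5 of the 6, Gbp4 being the exception, and 10.8% of all genes had such an arrangement. Iigp1 had 8.47, 8.88 and 7.76 in KO acute controls and 7.27, 6.54 and 7.03 in WT acute controls, a difference of 1.42 ± 0.59 (interval 0.23 to 2.62, limma adjusted p = 0.261). Irgm1 had 10.10, 10.32 and 9.70 in KO acute controls and 9.30, 9.33 and 9.40 in WT acute controls, a difference of 0.70 ± 0.31 (limma adjusted p = 0.315). The others differed by 0.80 (Gbp3), 0.69 (Gbp7), 0.55 (Gbp4) and 0.40 (Gbp9). Of the 23 type I interferon targets 7 were higher in KO and 0 lower (0.341% of all genes were higher), with Oas3 at 2.01 ± 0.34. The KO controls belong to the second series and the WT controls to the plain numbers, so these arrays alone cannot tell genotype from series. KO acute DSS spans both series, and with series as a covariate Iigp1 stood at 3.10, Gbp4 at 2.01 and Gbp7 at 1.86 and all 3 passed (limma adjusted p = 0.025, 0.0416 and 0.0215). In that fit 361 of all genes passed. Its series term rests on KO acute DSS alone and assumes the same shift in untreated colon, which was not tested. With only the arrays compared, 4 GTPases passed (Iigp1, Irgm1, Gbp3 and Gbp7, limma adjusted p = 0.0078 to 0.0297), as did 964 of all genes.

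Within KO mice, acute DSS was set against control. Iigp1 and Gbp4 were higher, 2 of the 6 genes, where 0.266% of all genes passed as higher, and all 6 had an unadjusted p under 0.05 (16.3% of all genes). Iigp1 had 9.10 (lowest), 10.50 (median) and 11.77 (highest) in KO acute DSS, above all 3 KO controls, and the difference was 2.12 ± 0.51 (limma adjusted p = 0.0311). Gbp4, with 8.77 to 11.05 in KO acute DSS and 8.17, 8.58 and 8.45 in KO acute controls, also had no overlap and differed by 1.58 ± 0.39 (limma adjusted p = 0.0369). Irgm1 differed by 0.98 ± 0.27 with no overlap (limma adjusted p = 0.0635), and 2.79% of all genes lay apart in this direction. Gbp3 (0.90 ± 0.32), Gbp7 (0.89 ± 0.31) and Gbp9 (0.85 ± 0.27) overlapped and did not pass (limma adjusted p = 0.107 to 0.147).

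Series moved with this result. Within the second series (3 arrays against 3) the differences were 1.28 for Iigp1 and 0.85 for Gbp4 and neither passed (limma adjusted p = 0.541 for each). Of all genes 0 passed there. Both calls were lost when any 1 of KO acute DSS replicates 1 to 3 or of the KO acute controls was left out (adjusted p in limma 0.0667 to 0.141 for Iigp1, 0.0705 to 0.202 for Gbp4). Without KO acute DSS replicate 4, 5 of the 6 genes passed, with array weights all 6 did, and with only the arrays compared none did. Over all genes, 3247 passed with array weights and 0 with only the arrays compared. The count over all genes without KO acute DSS replicate 4 is not given here, so the 5 GTPases cannot be set against it. Of related genes Gm4841 (1.26 ± 0.27), Gbp8 (1.12 ± 0.22), Ifit2 (1.65 ± 0.29), Irf8 (0.56 ± 0.13) and the nitric oxide synthase Nos2 (2.77 ± 0.59) were higher in KO acute DSS, and Ifng stood at 0.66 ± 0.22 (limma adjusted p = 0.125). Of 13 T and natural killer cell markers 0 passed in limma, and their mean level ranged over 7.31 to 8.42 in KO acute DSS and 7.21 to 7.59 in KO acute controls.

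Within WT mice, Iigp1 and Gbp9 were higher in acute DSS than in control, again 2 of 6 genes, where 19.4% of all genes passed as higher and 21.8% as lower. Gbp9 had 9.10, 8.09, 9.92, 8.21 and 8.46 in WT acute DSS and 7.75, 7.74 and 7.52 in WT acute controls, with no overlap, and differed by 1.09 ± 0.28 (limma adjusted p = 0.00239). Iigp1 also had no overlap, with 7.46 to 10.37 in WT acute DSS and 6.54 to 7.27 in WT acute controls, and differed by 1.46 ± 0.52 (limma adjusted p = 0.0251). In all, 17.7% of genes lay apart in this direction. Irgm1 stood at -0.04 ± 0.28 (interval -0.61 to 0.52), with DSS arrays on both sides of the controls. Gbp4 (0.83 ± 0.40), Gbp3 (0.56 ± 0.33) and Gbp7 (0.41 ± 0.32) overlapped and did not pass (limma adjusted p = 0.0977 to 0.317). Irf1 fell by 0.40 ± 0.15 (limma adjusted p = 0.0343) and Gbp5 rose by 1.48 ± 0.46 (limma adjusted p = 0.0109).

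WT acute DSS replicate 3 held the highest value of each of the 6 genes in its group. It also had the lowest epithelial marker level of its group (10.79, against 11.82 to 12.61 in the others) and the highest neutrophil (10.14) and T and natural killer cell (7.89) levels. Without it Iigp1 stood at 0.98 and did not pass (limma adjusted p = 0.102), while Gbp9 stood at 0.80 and passed. The call of Iigp1 was also lost without WT acute DSS replicate 1 or WT acute control replicate 2 or 3 (limma adjusted p = 0.0513, 0.11 and 0.0619). With only the arrays compared neither gene passed (limma adjusted p = 0.111 for Iigp1 and 0.0673 for Gbp9), and with series as a covariate Gbp4 passed as well (limma adjusted p = 0.0453). In these fits 5751 and 8650 of all genes passed. Neutrophil markers were higher in WT acute DSS for 9 of 10 genes, macrophage markers for 8 of 11 and T and natural killer cell markers for 3 of 13, and epithelial markers were lower for 7 of 12. The part of these markers in the differences of Gbp9 and Iigp1 was not tested.

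Whether acute DSS acted differently in the genotypes was tested as the difference of the 2 effects, KO minus WT. None of the 6 GTPases passed in limma (12.3% of all genes did), and 1 had an unadjusted p under 0.05, as did 28.2% of all genes. That gene was Irgm1, at 1.02 ± 0.39 (interval 0.23 to 1.81, limma adjusted p = 0.0759), and it passed without WT acute DSS replicate 3 (1.28, limma adjusted p = 0.0185) or KO acute DSS replicate 6 (1.10, limma adjusted p = 0.0445). With array weights Iigp1, Irgm1, Gbp4 and Gbp7 passed (limma adjusted p = 0.000699 to 0.0424). Without weights the genes other than Irgm1 ranged over -0.24 (Gbp9) to 0.75 (Gbp4), with intervals that included 0. Iigp1 (0.66), Gbp3 (0.34) and Gbp7 (0.48) changed sign with series as a covariate, to -0.18, -0.09 and -0.11, and did not pass. The series term again rests on KO acute DSS alone. Irf1 (0.75 ± 0.21, limma adjusted p = 0.0213) and Batf2 (1.04 ± 0.27, limma adjusted p = 0.012) did pass. The difference between KO and WT under acute DSS also holds the one between their acute controls.

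**Figure D3:**
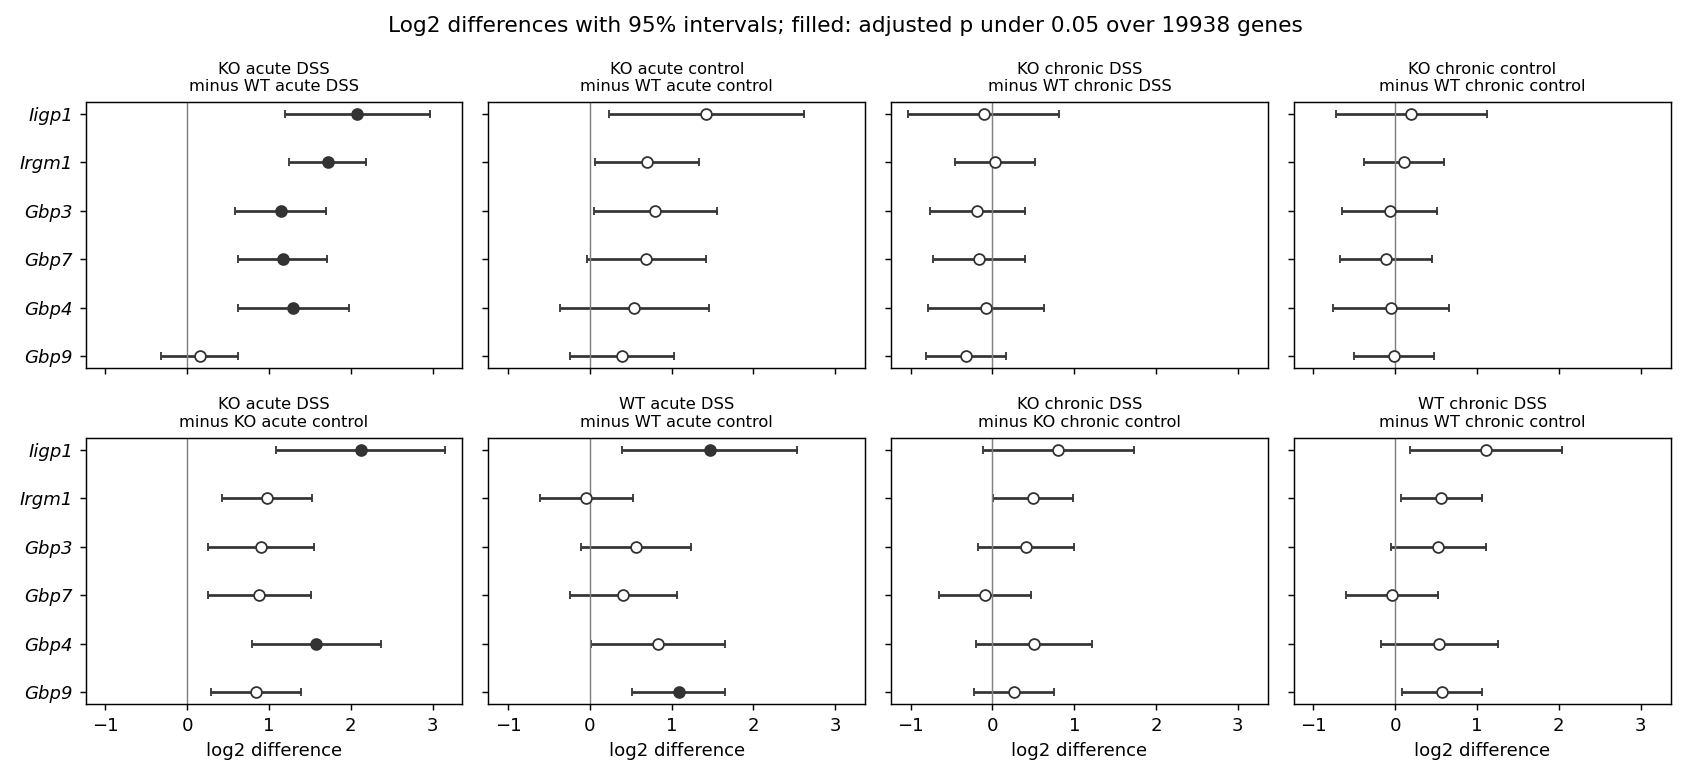
Log2 difference (x axis) of the 6 GTPases (rows) with 95% intervals in the 8 pairwise comparisons, filled where the gene passed at an adjusted p under 0.05. Filled points are 5 genes in KO acute DSS minus WT acute DSS, Iigp1 and Gbp4 in KO acute DSS minus KO acute control, and Iigp1 and Gbp9 in WT acute DSS minus WT acute control.

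In the chronic phase no GTPase passed in limma in any pairwise comparison. In KO mice chronic DSS minus control ranged over -0.09 (Gbp7) to 0.81 (Iigp1), where 7.94% of all genes passed, and 1 gene had an unadjusted p under 0.05, as did 23.3% of all genes. That gene was Irgm1, with 9.54, 9.70, 9.39, 9.80 and 9.40 in KO chronic DSS and 9.24, 8.85, 9.03, 8.88 and 9.37 in KO chronic controls. These groups did not overlap, as for 2.82% of all genes, and the difference was 0.49 ± 0.24 (limma adjusted p = 0.212). When only the arrays of these groups were fitted, Iigp1, Irgm1, Gbp3 and Gbp4 passed with the same differences (limma adjusted p = 0.0281 to 0.0387). In that fit 1501 of all genes passed. They also passed in the fit of the fourth series alone (limma adjusted p = 0.0185 to 0.0295), where 1899 genes did. That fit holds the same KO arrays, so it is no separate check. Gbp8 (0.71 ± 0.20), Ifit1 (1.73 ± 0.37), Ido1 (1.60 ± 0.49) and the T cell marker Cd3g (1.27 ± 0.25) passed in the fit of all arrays.

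In WT mice chronic DSS minus control ranged over -0.04 (Gbp7) to 1.11 (Iigp1), where 14.4% of all genes passed, and 3 genes had an unadjusted p under 0.05, as did 26.6% of all genes. Iigp1 had 7.56, 8.77, 8.45, 7.23 and 6.77 in WT chronic DSS and 6.57, 6.29, 7.37, 6.47 and 6.52 in WT chronic controls, a difference of 1.11 ± 0.45 (limma adjusted p = 0.101). Irgm1 differed by 0.57 ± 0.24 and Gbp9 by 0.58 ± 0.24 (limma adjusted p = 0.119 and 0.113). With only the arrays compared Iigp1 and Gbp9 passed (limma adjusted p = 0.0415 and 0.0234), as did 4029 of all genes. WT chronic DSS replicates 2 and 3 held the 2 highest values of their group in all 6 genes. Among relatives and targets Gm12250 (1.15 ± 0.34), Gbp8 (0.58 ± 0.20), Cxcl9 (1.92 ± 0.57) and 10 of 23 type I interferon targets were higher, as were 5.79% of all genes. T and natural killer cell markers were higher for 10 of 13 genes, with a mean level of 7.08 to 7.66 in WT chronic DSS and 6.57 to 6.85 in WT chronic controls. The part of these markers in the GTPase values was not tested.

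KO and WT were also compared in the chronic phase. Under chronic DSS, KO minus WT ranged over -0.32 (Gbp9) to 0.03 (Irgm1), and 0 of 6 genes passed in limma (2.48% of all genes did) or had an unadjusted p under 0.05 (16.9% of all genes). In chronic controls KO minus WT ranged over -0.11 (Gbp7) to 0.20 (Iigp1), and 0 of 6 genes passed in limma (0.1% of all genes) or had an unadjusted p under 0.05 (9.46% of all genes). The widest intervals were those of Iigp1, -1.03 to 0.82 under DSS and -0.72 to 1.12 in controls, so each still holds a 2-fold difference in one direction. All KO chronic DSS arrays belong to the fourth series and all WT chronic DSS arrays to the third, so these arrays alone cannot tell genotype from series. With series as a covariate Iigp1 (0.14), Gbp4 (0.31) and Irgm1 (-0.15) changed sign under DSS and did not pass. In controls Gbp4 (0.18), Gbp9 (0.17) and Irgm1 (-0.01) did likewise. That series term rests on WT chronic controls alone.

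The remaining differences of effects gave no call for the GTPases in limma either. The chronic DSS effect in KO minus that in WT ranged over -0.31 (Gbp9) to -0.03 (Gbp4), and no gene passed (0.421% of all genes) or had an unadjusted p under 0.05 (15.2% of all genes). The chronic minus the acute DSS effect in KO mice lay below 0 for all 6 genes, with Iigp1 at -1.32 ± 0.68, Gbp4 at -1.07 ± 0.52 and Gbp7 at -0.97 ± 0.42. None passed (0.01% of all genes), and Gbp4 and Gbp7 had an unadjusted p under 0.05, as did 11.4% of all genes. In WT mice the same 6 values ranged over -0.51 (Gbp9) to 0.61 (Irgm1), and no gene passed (17% of all genes) or had an unadjusted p under 0.05 (32% of all genes). Acute and chronic arrays shared no series. The acute DSS effect in KO mice was 2.12 for Iigp1, 1.58 for Gbp4 and 0.89 for Gbp7 with all arrays. Within the second series it was 1.28, 0.85 and 0.30.

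Ordered by group mean, KO acute DSS came first for all 6 genes. The next place went to KO acute controls for Irgm1 (10.04 ± 0.31, SD, n = 3), Gbp3 (8.77 ± 0.20) and Gbp7 (9.28 ± 0.16). For Iigp1 (8.41 ± 1.21, SD, n = 5), Gbp4 (8.68 ± 0.92) and Gbp9 (8.76 ± 0.76) it went to WT acute DSS. The first place itself was 11.02 ± 0.47 for Irgm1 and 10.49 ± 1.00 for Iigp1 (SD, n = 6), and for Irgm1 the KO acute DSS arrays lay above all KO acute controls. For Gbp9 the first 2 places, 8.91 ± 0.49 in KO acute DSS and 8.76 ± 0.76 in WT acute DSS, lay within 1 SD of each other. Of the 42 pairs of neighbours in these orders, 33 had means closer than the larger SD of the pair, and only KO acute DSS over KO acute control in Irgm1 had ranges that lay apart. The last place went to WT or KO chronic controls for 5 genes, and for Gbp7 to WT acute controls (8.59 ± 0.11, SD, n = 3).

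**Figure D4:**
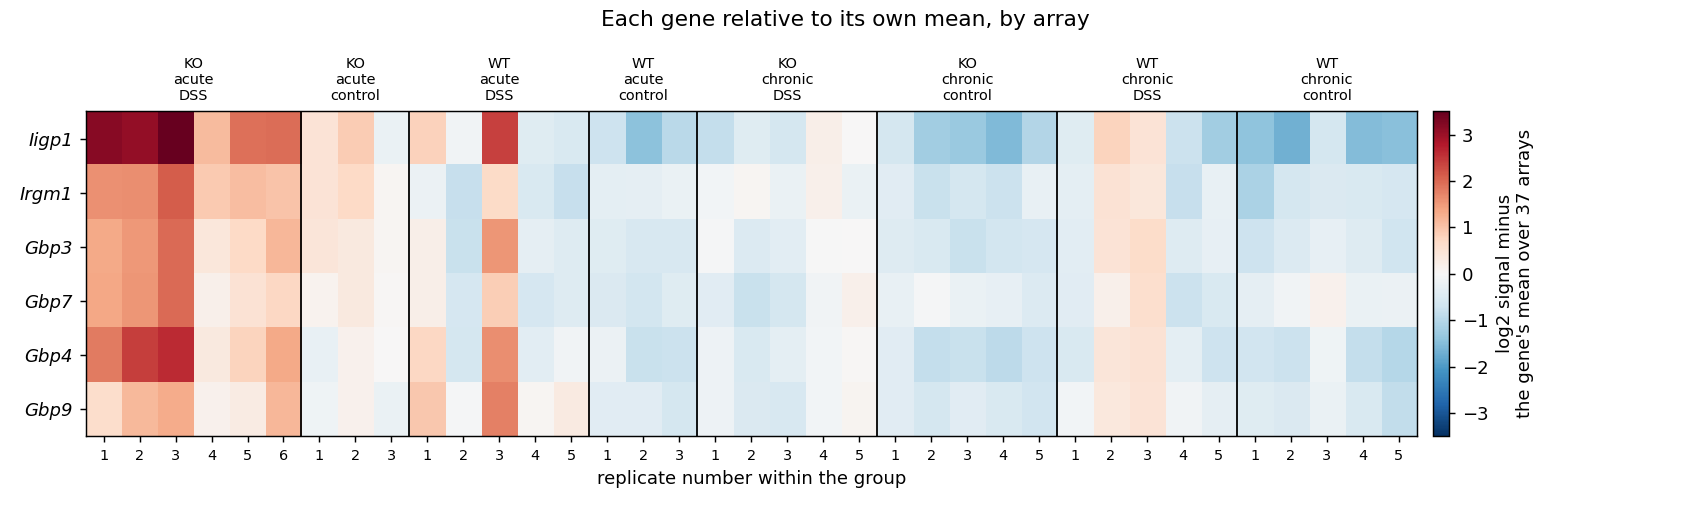
Log2 signal of each GTPase (rows) minus its own mean over 37 arrays (colour), by array (columns, numbered by replicate within the group). Columns 1 to 3 of KO acute DSS and column 3 of WT acute DSS are the darkest red for most genes, and the chronic control columns are mostly blue.

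The 6 genes moved together between arrays of the same group. With each group's mean removed, the correlation over 37 arrays ranged over 0.69 (Irgm1 and Gbp9) to 0.91 (Gbp3 and Gbp4) in the 15 pairs. The arrays share tissue composition and RNA quality within a sample, so these values are descriptions. Removing group means also keeps the gap between series of animal numbers within KO acute DSS and the high WT acute DSS replicate 3. Their part in these correlations was not tested. The 10 genes outside the named set most like the mean of the 6, by the same measure, were Cxcl9 (0.95), Gm4951 (0.94, synonym Ifgga2), Gm12250 (0.93), Tap1 (0.91), Parp14 (0.89), Ms4a4b (0.89), Trim21 (0.89), Gbp11 (0.89), Cd274 (0.89) and Cxcl10 (0.88). Ifng stood at 0.72 and Irf1 at 0.70, Ifngr1 at 0.00 and Timp1 at 0.34, and Ifngr2 at -0.52.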

How the data were processed

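The deposited table holds log2 signals per transcript cluster. Per the submitters' processing notes the authors made them by RMA, with no version given. The base of the logarithm was read as 2 from the values (3.03 to 14.96). Of 35511 clusters 21789 had 1 gene symbol in the platform annotation, 1621 had several and 12101 were not listed. For each symbol the cluster with the highest mean over 37 arrays was kept, which gave 19938 genes. Samples were grouped by genotype, phase and treatment from their labels, and replicates were numbered in accession order.

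The 8 group means were fitted jointly to the 37 arrays (limma 3.58.1 in R 4.3.3, 29 residual and 3.18 prior degrees of freedom). There were 12 comparisons, each with Benjamini-Hochberg adjustment over all genes, two-sided tests and a threshold of 0.05. The model was tested on simulated data. The number of arrays per group, 3 to 6, limits the precision. The GTPases, the gene lists, tests and alternatives were chosen with earlier results of these data known. Named genes were all 10 GTPases, up to 3 genes of each list with the largest absolute difference among those that passed in the comparison, the 10 genes most like the 6 measured GTPases in their variation within groups, and Ifng, Ifngr1, Ifngr2, Irf1 and Timp1. A further gene of the rule is not reported here. In KO against WT acute DSS, Jak1, Atl3, Gbp5 and Casp4 fell outside this rule and were chosen after their values were seen. Promoters were read from RefSeq, and windows of the 10 genes on the chromosome of Iigp1 were left out. Alternatives were a robust prior with a trend, a filter on the dimmest 33.33% of genes, all clusters, the cluster of highest variance, cyclic loess, array weights, series of animal numbers as a covariate or 1 series alone, sex (read from Xist and Y-linked genes) as a covariate, only the arrays compared, each array left out in turn and, added after the data were seen, the fit without the 2 arrays that had Y-linked signal.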

Additional observations from a re-analysis of the deposited data

Results flagged for a closer look

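Of 36 tests of a single array against the rest of its group, 2 found one set apart (Dixon's test), and chance alone marks about 1 in 20 groups. Iigp1 in WT chronic control replicate 3, at 7.37, lay above the other 4 arrays of that group (6.29 to 6.57). Irgm1 in WT chronic control replicate 1, at 8.54, lay below the other 4 (9.01 to 9.13). Without WT chronic control replicate 3 or replicate 1, KO minus WT in chronic controls and DSS minus control in WT chronic mice still had 0 of 6 genes past the threshold in limma.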

How the results depend on the processing

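No paired analysis was possible because the titles give animal numbers and no replicate number shared between groups. The figures here are how many of the 6 GTPases passed, with the number of all genes that passed in brackets. The cause of each change was not tested. For KO acute DSS against KO acute control, 2 passed (223), against 1 with all clusters (177 clusters) and 6 with array weights (3247). The count was 0 with the series covariate (3), within 1 series (0), with sex as a covariate (115) or with only the arrays compared (0). For WT acute DSS against WT acute control, 2 passed (8211), against 3 with the series covariate (8650, Gbp4 added). Within 1 series 1 passed (6986), and with only the arrays compared 0 did (5751). For KO chronic DSS against KO chronic control, 0 passed (1583), against 4 within 1 series (1899) and 4 with only the arrays compared (1501). For WT chronic DSS against WT chronic control, 0 passed (2864), against 2 with array weights (4953) and 2 with only the arrays compared (4029). For KO against WT acute control, 0 passed (223), against 4 with array weights (3041) and 3 with the series covariate (361). With only the arrays compared 4 passed (964). For KO against WT acute DSS, 5 passed (6170), against 6 with array weights (5076, Gbp9 added). With only the arrays compared 2 passed (2239), and Gbp3, Gbp4 and Gbp7 were lost. With array weights 4 passed (5000) for the acute DSS effect in KO minus that in WT, against 0 without weights (2444). For the chronic minus the acute effect, array weights gave 2 in KO (1249) and 1 in WT (5022). Without weights 0 passed in KO (2) and 0 in WT (3392).

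Leaving out 1 array moved the count over 0 to 5 for KO acute DSS, 1 to 3 for WT acute DSS, 0 to 1 for WT chronic DSS (1, Irgm1, without WT chronic DSS replicate 4) and 0 to 1 for the acute difference of effects. It stayed at 5 for KO against WT acute DSS in 11 such fits. Counts over all genes are not given for the fits with 1 array left out, so these GTPase counts cannot be set against a share of all genes. Among all genes, 223 passed for KO acute DSS against control, with 0 to 3247 over the other settings, and 223 for KO against WT acute control, with 105 to 3041. For KO against WT acute DSS 6170 passed, with 2239 to 7413, and for the acute difference of effects 2444, with 536 to 5000. Differences that had not passed with all arrays changed sign in 76 fits, with values up to 0.34 that did not pass either. No difference that passed with all arrays changed sign in a setting run. The fit within 1 series could not be made for KO against WT acute control, KO against WT chronic DSS or the differences of effects, whose groups share no series. Without the 2 arrays with Y-linked signal the counts among the 6 GTPases were the same in all 12 comparisons, while over all genes 80 passed for KO acute DSS against control, 129 for KO against WT acute control, 5674 for KO against WT acute DSS and 2007 for the acute difference of effects.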
